A study of Homo sapiens with 36 samples.

Results

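The genes described here are 10 parts of the inflammasome, measured as RNA in THP-1 monocytes: NLRP3, NLRC4, AIM2, NEK7, TXNIP, PYCARD, CASP1, CASP4, CASP5 and GSDMD. They are 10 of the 57500 genes counted in each library. The list was built around NLRP3, which was selected on its lower values at 10% CO2 in LPS-stimulated cells, and the other 9 genes were chosen by name to be set beside it. The comparison of 10% with 5% CO2 in the presence of LPS is therefore given as a description: no p-value is given for it, and its counts of called genes are printed for completeness only. The other comparisons are tested, except that NLRP3 gets no p-value where the libraries at 10% CO2 with LPS are compared. Libraries at 5% CO2 with LPS are the other arm of that choice, so tests of NLRP3 that use them are not independent of it.

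THP-1 is a human monocytic leukaemia line. It was used as 3 lines made with lentiviral particles: a line with a non-target hairpin (shNT) and 1 line each with hairpin RNA against NR4A2 (shNR4A2) or NR4A3 (shNR4A3), which are orphan nuclear receptors that LPS induces. Every line was held for 4 h in buffered DMEM at 5% CO2, the control exposure, or at 10% CO2, the hypercapnic one, and lipopolysaccharide (LPS, 2.5 µg/mL) was either absent or present for the last 2 h. The 12 conditions had 3 libraries each, 36 in all. Each target had 1 line, so a knockdown and any other feature of its line cannot be told apart. The labels only number the replicates, and the study describes its sequencing data as coming from individual experiments. The study also states that data of shNT cells, and of all lines at 5% CO2, had been deposited earlier. The labels give no batch, so a batch in the comparisons of lines at 10% CO2, or of CO2 within the knockdown lines, was not tested.

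Inflammasomes are complexes that assemble in the cytosol when a sensor protein meets a danger or microbial signal. In the best known form, NLRP3 binds the kinase NEK7, recruits the adaptor ASC (encoded by PYCARD) and through it caspase-1, which cuts pro-interleukin-1β, pro-interleukin-18 and gasdermin D (GSDMD), whose fragment opens pores in the plasma membrane. Caspase-4 and caspase-5 bind LPS in the cytosol and cut gasdermin D directly. In monocytes, LPS acting on the cell surface also primes the system by raising transcription of some of its genes, with pro-interleukin-1β the standard example.

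Upstream sequences are shown for the 3 members on which the results below turn in different directions: NLRP3, TXNIP and CASP5. They were taken from RefSeq windows on GRCh38.p14 that run from 250 bases before to 50 bases after a start site, and 7 of the 10 members matched a window. Those 7 had 10 windows in all, since TXNIP and NLRC4 had more than 1. Only bases outside every annotated exon are printed, 5′ to 3′ on the strand of the gene. NLRP3 lies on chromosome 1 from 247416156 to 247449108, on the plus strand, and the bases shown are chr1:247415923-247416155. TXNIP lies on chromosome 1 from 145992435 to 145996600, on the minus strand, and the bases shown are chr1:145996601-145996829. CASP5 lies on chromosome 11 from 104994235 to 105023168, on the minus strand, and the bases shown are chr11:105023169-105023418. Capitals mark motif matches.
NLRP3: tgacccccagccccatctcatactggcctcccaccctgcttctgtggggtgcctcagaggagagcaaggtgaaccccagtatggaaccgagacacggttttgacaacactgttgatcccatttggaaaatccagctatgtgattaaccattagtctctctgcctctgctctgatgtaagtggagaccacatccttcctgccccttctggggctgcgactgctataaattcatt
TXNIP: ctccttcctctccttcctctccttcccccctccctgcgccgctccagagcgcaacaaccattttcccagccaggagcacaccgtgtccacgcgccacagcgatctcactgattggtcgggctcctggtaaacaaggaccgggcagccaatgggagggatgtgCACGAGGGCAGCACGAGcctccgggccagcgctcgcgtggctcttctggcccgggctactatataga
CASP5: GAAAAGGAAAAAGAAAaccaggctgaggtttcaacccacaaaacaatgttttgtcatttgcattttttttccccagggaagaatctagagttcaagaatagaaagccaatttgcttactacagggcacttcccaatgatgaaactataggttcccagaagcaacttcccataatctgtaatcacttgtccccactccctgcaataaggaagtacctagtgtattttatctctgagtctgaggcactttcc

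The 4 motifs named here were searched on both strands of the whole windows. The TXNIP window shown above held the carbohydrate response element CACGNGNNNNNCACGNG, bound by the glucose-sensing factors ChREBP and MondoA with MLX, as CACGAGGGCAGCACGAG from base -88. That motif was in 20 of 35116 windows of 300 bases (0.057%). A further TXNIP window, with its start site at 145995744, held none of the 4 motifs. The CASP5 window held GAAANNGAAA, a spaced repeat bound by interferon regulatory factors, as GAAAAGGAAA and GAAAAAGAAA, which overlap, and the AIM2 window held it too. It was in 3.57% of all windows. The κB consensus of NF-κB (5.91% of all windows) and AAAGGTCA, the NBRE bound by NR4A receptors (1.22%), were in none of the 7 members' windows. No motif was in the NLRP3 bases above. CASP4 and CASP5 are neighbours on chromosome 11, CASP4 from 104942866 to 104969436, and their windows aligned over 276 bases with 77.2% identical. A match is a run of letters and was not tested as a site of binding.

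The members differed widely in level. Per length, in TPM (counts over gene length, scaled to the same sum in every library) in shNT cells at 5% CO2, TXNIP was at 1172 ± 59.8 (SD, n = 3), PYCARD at 210.2 ± 12.1, NLRP3 at 102 ± 8.93 and GSDMD at 68.1 ± 4.52. CASP1 (42.4 ± 1.08) and NEK7 (42.4 ± 5.38) were at the same TPM level, CASP4 stood at 31.9 ± 1.23, NLRC4 at 2.98 ± 0.366 and CASP5 at 0.237 ± 0.108. CASP5 was thus a rare transcript, with a mean of 11 reads per library over the 36 and 2 libraries at 0. AIM2, the sensor of cytosolic DNA, had 46 reads in the 36 libraries together, at most 5 in any of them and none in 15. A count of 0 allows up to 3 reads, or 0.116 to 0.193 as CPM (counts scaled to a common library size), so differences of that size were not detectable, and its highest library was at 0.287. AIM2 did not pass the filter on low counts, and 9 of the 10 members were tested.

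Library totals ranged from 16171161 to 23929138 counts, with a median of 19639071. Of 10 monocyte and myeloid markers, 9 had a median TPM of at least 1, the exception being FCN1. The summed TPM over the libraries was 872 to 2305 for that list and 78.4 to 296 for a list of 13 markers of other cell types, most of it PECAM1 (median 166 TPM), which monocytes also express. NR4A2 in shNT cells with LPS at 5% CO2 was at 62.7 ± 11.7 TPM and in shNR4A2 cells at 21.2 ± 6.78, and NR4A3 was at 31.7 ± 0.708 TPM in shNT and 17.3 ± 0.807 in shNR4A3 cells. Below, levels by library are CPM after TMM scaling, and a gene is called at a Benjamini-Hochberg adjusted p under 0.05 in edgeR's quasi-likelihood test over 17720 genes. In bulk RNA, fewer cells and less RNA per cell cannot be told apart.

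**Figure D1:**
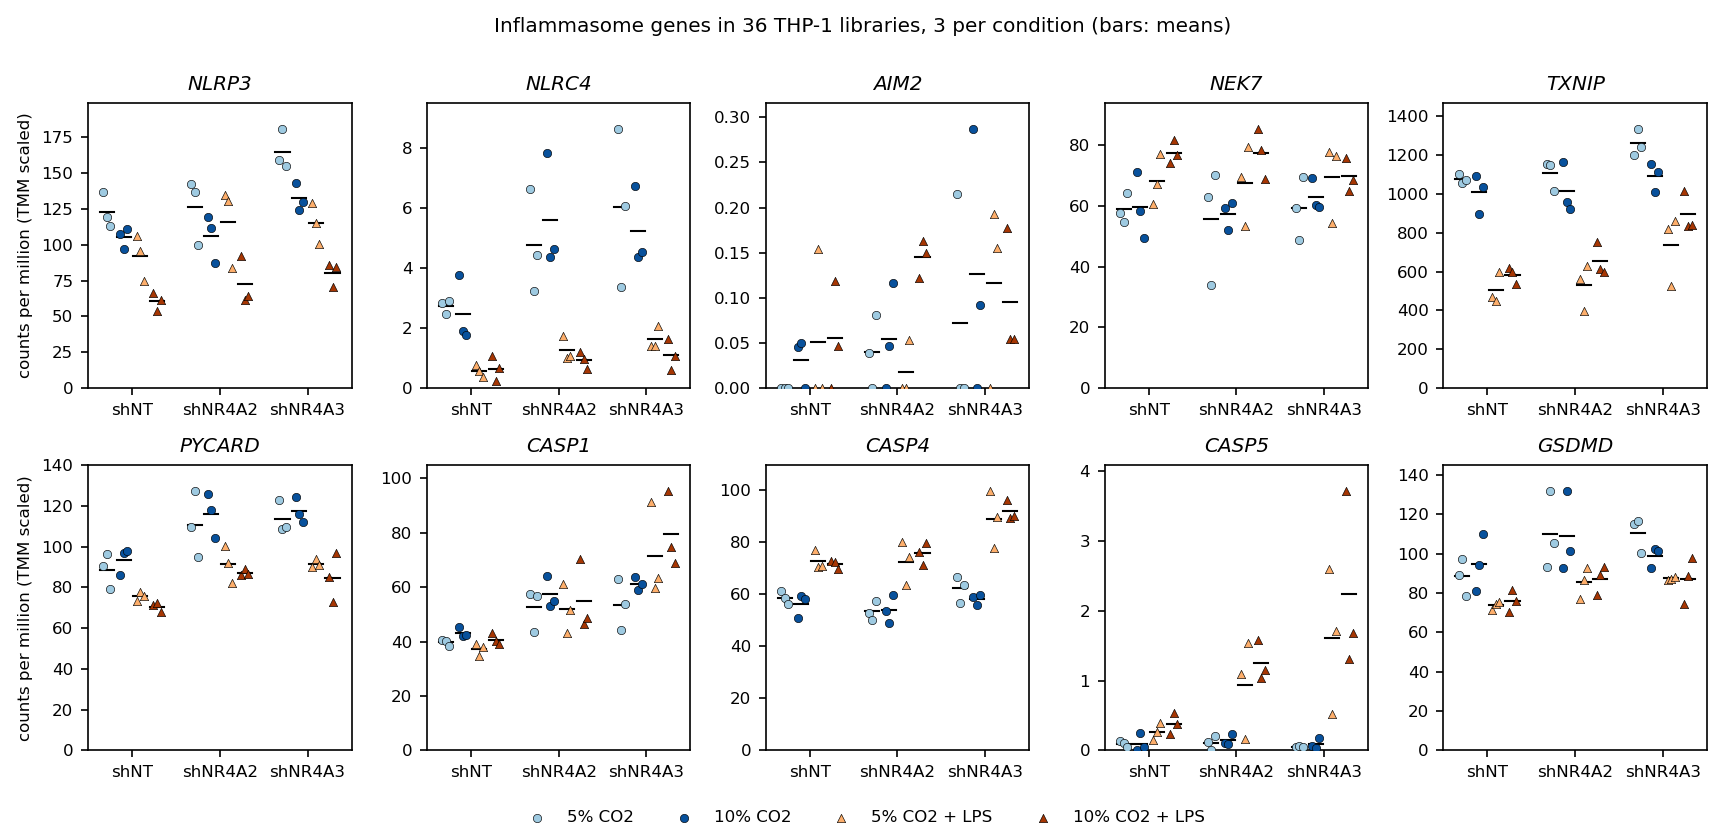
Scaled CPM of the 10 genes in each of the 36 libraries, by line (x axis) and condition (colour and shape), with bars at the means; each panel has its own linear axis from 0. NLRP3 was lowest in every line at 10% CO2 with LPS, TXNIP and NLRC4 were lower with LPS, and CASP5 was highest with LPS in the shNR4A3 line, while AIM2 stayed within 5 reads of 0.

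NLRP3, the sensor, was lower at 10% than at 5% CO2 in LPS-stimulated cells of all 3 lines. In shNT cells with LPS its scaled CPM was 106, 95.6 and 74.6 at 5% CO2 and 66.0, 53.8 and 61.6 at 10% CO2. In shNR4A2 cells with LPS it was 135, 130.1 and 83.5 at 5% and 92.1, 61.8 and 64.0 at 10% CO2. In shNR4A3 cells with LPS it was 129, 115 and 100.3 at 5% and 86.1, 70.4 and 84.5 at 10% CO2. The 2 exposures did not overlap in shNT and shNR4A3 cells and overlapped in shNR4A2 cells, where the third library at 5% CO2 was below the first at 10%. The log2 fold changes were -0.60 ± 0.12 (SE) in shNT, -0.68 ± 0.21 in shNR4A2 and -0.51 ± 0.11 in shNR4A3 cells.

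Among the other members in the same LPS-stimulated libraries, NLRC4 in shNR4A3 cells (-0.57 ± 0.37) was alone in lying as far below 0. TXNIP, which binds thioredoxin and NLRP3, lay on the other side of 0 in each line, with log2 fold changes of 0.21 ± 0.10 in shNT, 0.31 ± 0.16 in shNR4A2 and 0.29 ± 0.18 in shNR4A3 cells. PYCARD ranged from -0.11 to -0.07 over the lines, CASP4 from -0.02 to 0.06, GSDMD from -0.00 to 0.05, CASP1 from 0.08 to 0.16 and NEK7 from 0.01 to 0.20. NLRC4 (-0.57 to 0.19) and CASP5 (0.43 to 0.50) had standard errors of up to 0.51 and 0.57. The count of members called was 1 of 9 in shNT, 0 of 9 in shNR4A2 and 1 of 9 in shNR4A3 cells, against 8.19%, 0.198% and 2.13% of all genes. In shNR4A2 cells 1 member was below 0.05 before adjustment and DESeq2 found 1. NLRP3 was chosen from this contrast, so nothing is read from these counts.

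Libraries without LPS had no part in that choice, and there NLRP3 was also lower at 10% CO2. In basal shNT cells it was at 136, 119.5 and 113 scaled CPM at 5% CO2 and 108, 97.3 and 111 at 10% CO2, which did not overlap. Basal shNR4A2 cells had 142, 137 and 99.97 at 5% CO2 and 119, 111 and 87.2 at 10% CO2, which overlapped. Basal shNR4A3 cells had 159, 181 and 155 at 5% CO2 and 143, 124 and 129.7 at 10% CO2, which did not. The log2 fold changes were -0.22 ± 0.10, -0.25 ± 0.14 and -0.31 ± 0.08 in the 3 lines, none of them called (adjusted p = 0.329, 0.701 and 0.0765). With the 3 lines in a single fit and the line as a term, NLRP3 fell by 0.26 ± 0.07 on the log2 scale (adjusted p = 0.00848). It was the only member called of 9, where 17.9% of all genes were called. The call held in all 18 fits that left out a library, with an adjusted p of 0.0013 to 0.0221, and was lost in a fit to all 36 libraries (adjusted p = 0.053).

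None of the other tested members was called for CO2 without LPS in the main edgeR fits, with TMM scaling, no replicate block and every library. In the single lines 0 of 9 members were called by edgeR, against 0.615% of all genes in shNT, 0.0113% in shNR4A2 and 1.13% in shNR4A3 cells. Members with an unadjusted p below 0.05 numbered 1, 0 and 2, and the DESeq2 counts were 0, 0 and 1. With the replicate number as a block, which paired the shNR4A2 libraries, the count in that line was again 0, against 2.04% of all genes. In shNR4A3 cells, where the numbers did not pair the libraries, the block called NLRP3 (-0.31 ± 0.08, adjusted p = 0.0232). Over the 3 lines together TXNIP was at -0.13 ± 0.05 (adjusted p = 0.0703) and CASP1 at 0.15 ± 0.06 (adjusted p = 0.102). The block called both in that fit, TXNIP at -0.14 ± 0.04 (adjusted p = 0.025) and CASP1 at 0.16 ± 0.05 (adjusted p = 0.0225). Replicate numbers did not pair the libraries of that fit, where correlations of their deviations ran from -0.163 to 0.386. TXNIP passed without shNT 10% CO2 replicate 1, shNR4A2 5% CO2 replicate 3 or shNR4A2 10% CO2 replicate 1, and CASP1 without shNR4A3 5% CO2 replicate 1, each of which made the count 2. TXNIP was thus below 0 without LPS and above 0 with it, a difference that was not tested.

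**Figure D2:**
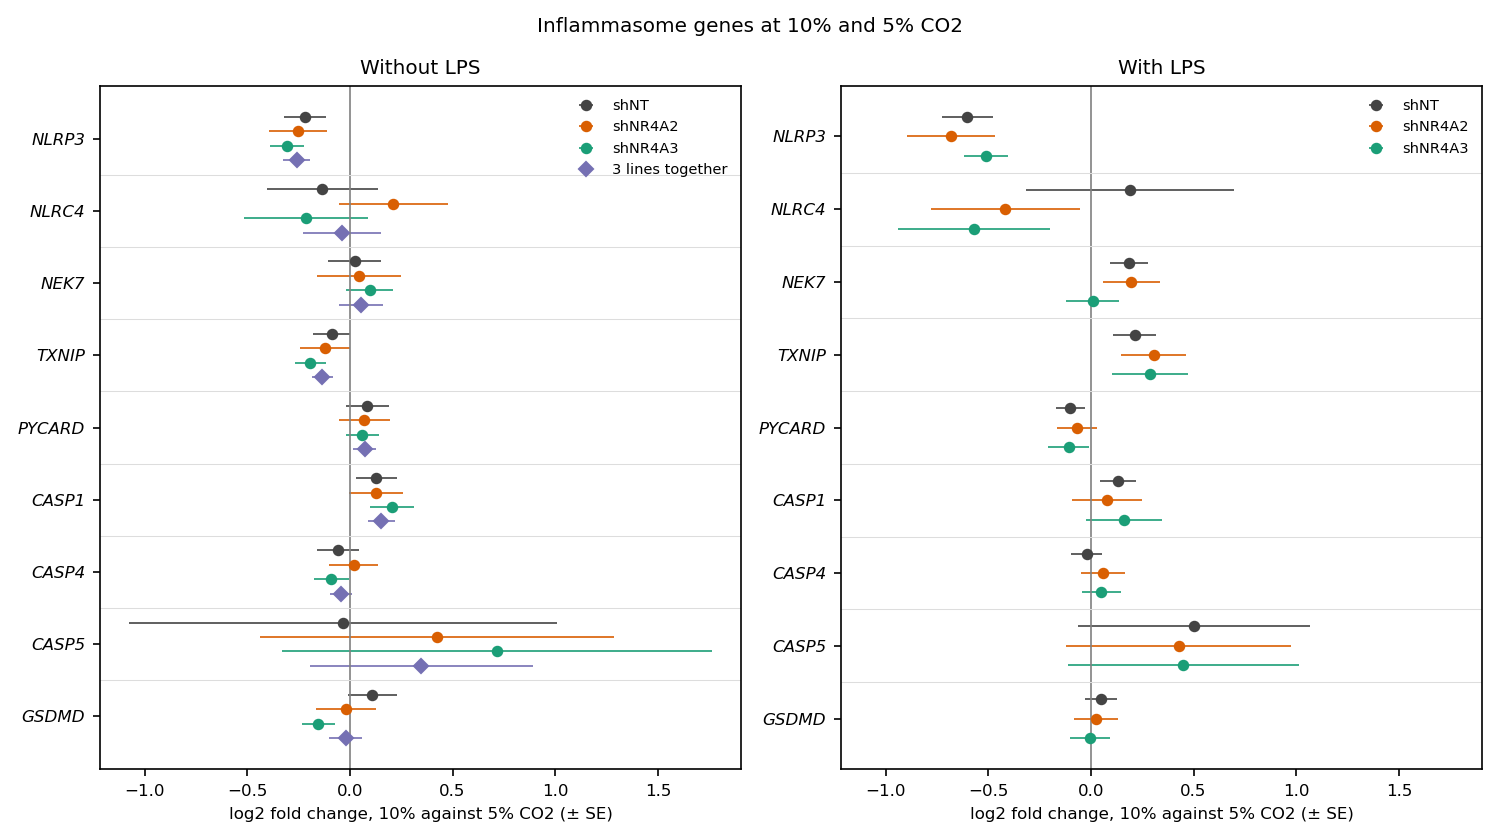
Log2 fold change at 10% against 5% CO2 (x axis, bars are standard errors) of the 9 tested genes, without LPS at left and with LPS at right, by line. NLRP3 lies left of 0 in every line on both sides, at -0.22 to -0.31 without LPS and -0.51 to -0.68 with it, and TXNIP changes side between the panels.

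Over the 12 conditions the mean scaled CPM of NLRP3 was highest in basal shNR4A3 cells at 5% CO2, at 165 ± 13.9 (SD, n = 3), and lowest in shNT cells at 10% CO2 with LPS, at 60.5 ± 6.2. Only the highest condition stood clear of its neighbour in that order, which was shNR4A3 at 10% CO2. Every other neighbouring pair overlapped in its libraries. In each line 5% CO2 without LPS was highest and 10% CO2 with LPS lowest. The genes most like NLRP3 over the 12 condition means, by Pearson's correlation of log2 CPM, were B3GNT7 (r = 0.977), SUN2 (0.973), TES (0.973), SLC20A2 (0.969) and MXD4 (0.965). After the mean of each line and LPS state was taken out, so that CO2 and the spread between replicates were left, they were MGAT1 (r = 0.964), DNAJC5 (0.964), SYK (0.956), ADGRG5 (0.943) and ARHGAP30 (0.941) over 36 libraries. These points share libraries and scaling, and the values are descriptions.

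LPS moved the inflammasome genes in both directions. NLRC4 and TXNIP fell and CASP4 rose in all 6 comparisons of LPS-stimulated with basal cells, NLRP3 fell in 2 of the 3 at 5% CO2, CASP5 rose in 4 of the 6 and PYCARD fell in 4. GSDMD fell in 2, NEK7 rose in 2 and CASP1 rose in 1. At 5% CO2 the members called were 4 of 9 in shNT (22.9% of all genes called), 4 of 9 in shNR4A2 (18.2%) and 7 of 9 in shNR4A3 cells (25.3%). At 10% CO2 they were 7 of 9 in each line, where 31.2%, 35% and 42.1% of all genes were called. The median log2 fold change of the tested members was -0.22 to -0.31 in shNT, -0.12 to -0.31 in shNR4A2 and -0.31 to -0.17 in shNR4A3 cells, against -0.01 to 0.00 over all genes. NLRP3 is 1 of the 7 in each line at 10% CO2, where one arm is the libraries whose low values chose it, so those counts are 6 without it. At 5% CO2 it was also called in shNT and shNR4A3 cells, in LPS libraries that are the other arm of that choice.

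Scaling bore on the LPS comparisons. TMM factors were 0.881 to 0.967 in libraries with LPS and 1.05 to 1.13 in those without. Scaled by library size only, the median of all genes moved to between -0.18 and -0.25 (log2), and the share of called genes that were higher went from 47% to 49.2% down to 22% to 24.3%. The LPS responses recomputed under that scaling kept their direction relative to 0, except that of NEK7 in shNR4A3 cells at 10% CO2, uncalled under both, which went from 0.17 to -0.08. CASP4 then was called in the shNR4A3 line only, at 0.14 to 0.25 in the other lines, which lies further above the shifted median than above 0.

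**Figure D3:**
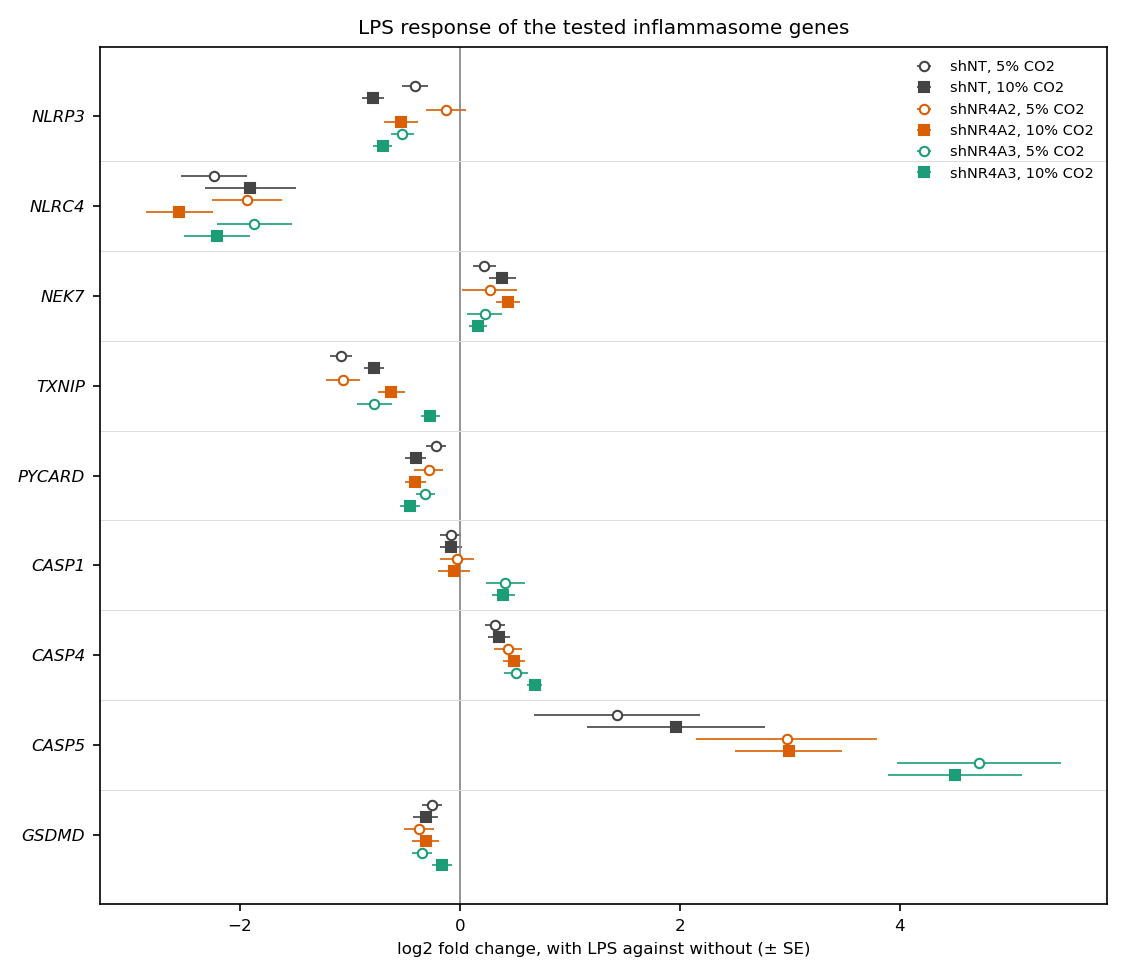
Log2 fold change with against without LPS (x axis, bars are standard errors) of the 9 tested genes in the 3 lines at 5% CO2 (open circles) and 10% CO2 (filled squares). NLRC4 (-1.87 to -2.55) and TXNIP (-0.27 to -1.08) lie left of 0 and CASP4 (0.32 to 0.68) right of it throughout, and CASP5 runs from 1.43 in shNT to 4.73 in shNR4A3 cells.

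Among the sensors, NLRC4, which pairs with NAIP proteins to detect bacterial flagellin and secretion system parts, had the deepest fall with LPS. In shNT cells its scaled CPM was 2.83, 2.46 and 2.90 at 5% CO2 and 0.771, 0.565 and 0.39 with LPS, and 3.76, 1.91 and 1.76 at 10% CO2 and 1.06, 0.237 and 0.663 with LPS. The groups did not overlap in any of the 6 comparisons. It fell by 2.24 ± 0.30 on the log2 scale at 5% CO2 in shNT cells (adjusted p = 3.2e-05) and by 1.91 ± 0.41 at 10% (adjusted p = 0.0023). In the knockdown lines it fell by 1.94 ± 0.32 and 2.55 ± 0.30 (shNR4A2) and by 1.87 ± 0.34 and 2.21 ± 0.30 (shNR4A3) at 5% and 10% CO2. These calls held without any single library. NLRC4 was counted at 4 to 40 reads per library with LPS, so its folds rest on few reads.

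NLRP3 fell with LPS at 5% CO2 in 2 of the 3 lines, by less. There it fell by 0.41 ± 0.12 in shNT cells (adjusted p = 0.0195) and by 0.52 ± 0.10 in shNR4A3 cells (adjusted p = 0.00243), and in shNR4A2 cells it was at -0.12 ± 0.18 (adjusted p = 0.696). Those LPS libraries are the other arm of the comparison that chose NLRP3, so these tests are not independent of the choice. At 10% CO2 its log2 fold changes with LPS were -0.79 ± 0.10 in shNT, -0.53 ± 0.16 in shNR4A2 and -0.70 ± 0.09 in shNR4A3 cells, which are a description, since NLRP3 was chosen for its low values in those LPS libraries. The fall in shNT cells at 5% CO2 lost its call without shNT 5% CO2 replicate 1 or 2 or shNT 5% CO2 with LPS replicate 3 (adjusted p up to 0.0841). No rise of NLRP3 with LPS was called in any line at this time point.

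TXNIP, the partner at the highest level, fell in every comparison with LPS. In shNT cells at 5% CO2 it was at 1102, 1053 and 1071 scaled CPM without LPS and 472, 448 and 598 with it, and at 10% CO2 at 1088, 898 and 1036 without and 620.3, 597 and 536 with LPS. In shNR4A3 cells it was at 1201, 1334 and 1242 without and 821, 527 and 859 with LPS at 5% CO2, and at 1155, 1008 and 1113 without and 1016, 833 and 837 with LPS at 10% CO2. The groups overlapped only in that last comparison. It fell by 1.08 ± 0.10 in shNT, 1.06 ± 0.16 in shNR4A2 and 0.78 ± 0.16 in shNR4A3 cells at 5% CO2 (adjusted p = 8.58e-07, 0.000219 and 0.00649). At 10% CO2 it fell by 0.78 ± 0.09, 0.62 ± 0.12 and 0.27 ± 0.09 in the same order of lines (adjusted p = 4.37e-06, 0.000929 and 0.0237). The values at 10% CO2 were nearer to 0 than those at 5% in each line, and that difference was not tested. NEK7, the kinase that licenses NLRP3, rose at 10% CO2 in shNT (0.39 ± 0.12) and shNR4A2 cells (0.44 ± 0.11) and lay between 0.17 and 0.27 in the other 4 comparisons.

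PYCARD, which encodes the adaptor ASC, fell with LPS by 0.40 ± 0.09 in shNT, 0.40 ± 0.09 in shNR4A2 and 0.45 ± 0.09 in shNR4A3 cells at 10% CO2 (adjusted p = 0.00356, 0.00367 and 0.0014). At 5% CO2 it fell by 0.31 ± 0.09 in shNR4A3 cells (adjusted p = 0.019) and was at -0.22 ± 0.09 and -0.28 ± 0.13 in the other lines, uncalled. PYCARD shares 991 of its 1661 exon bases (59.7%) with the antisense gene PYCARD-AS1, which had a median of 13 reads per library. The strand setting of the counts is not stated, so reads of the pair cannot be told apart.

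The caspases went the other way or stayed near 0. CASP4, a cytosolic LPS receptor, was at 61.3, 58.4 and 56.0 scaled CPM in shNT cells at 5% CO2 and at 77.1, 70.4 and 70.7 with LPS. In shNR4A3 cells at 10% CO2 it was at 58.7, 55.8 and 59.5 without and 96.3, 89.3 and 90.1 with LPS. The groups did not overlap in any line at either exposure. CASP4 rose by 0.32 ± 0.09, 0.44 ± 0.13 and 0.52 ± 0.11 at 5% CO2 and by 0.36 ± 0.10, 0.49 ± 0.10 and 0.68 ± 0.07 at 10% CO2, in the order shNT, shNR4A2 and shNR4A3, with adjusted p from 2.58e-06 to 0.029. CASP1, the caspase that matures interleukin-1β, rose in shNR4A3 cells at 10% CO2 (0.40 ± 0.11, adjusted p = 0.00929), was at 0.41 ± 0.18 there at 5% CO2 and lay within 0.08 of 0 in the other lines.

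CASP5 had few reads without LPS and more with it in every line. Summed over 3 libraries, shNT cells had 6 reads without and 16 with LPS at 5% CO2, and 6 and 21 at 10% CO2. The shNR4A2 cells had 8 and 49 at 5%, and 10 and 68 at 10% CO2. The shNR4A3 cells had 3 and 85 at 5%, and 6 and 118 at 10% CO2. As ratios of reads per scaled library these were 2.79 (95% exact interval 1.04 to 8.72) and 4.11 (1.6 to 12.4) in shNT, 8.11 (3.81 to 19.8) and 8.05 (4.12 to 17.5) in shNR4A2, and 30.1 (9.97 to 149) and 23.7 (10.6 to 65.8) in shNR4A3 cells. The intervals cover counting error only. CASP5 passed the filter on low counts only through libraries of the knockdown lines with LPS, where it was high. Its tests, and the counts of called members that include it, are therefore not independent of that filter. Across replicates, the rise was called in both knockdown lines at both exposures (adjusted p from 5.34e-05 to 0.0234). It was not called in shNT cells (adjusted p = 0.201 at 5% and 0.0766 at 10% CO2). The replicate block called it there at 10% CO2 (2.04 ± 0.79, adjusted p = 0.0314). The second shNR4A2 library at 5% CO2 with LPS had 3 reads where the others had 17 and 29, and that call was lost without replicate 1 or 2 or LPS replicate 1 or 3 (adjusted p up to 0.0875).

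GSDMD, the pore former, fell with LPS by 0.31 ± 0.11 in shNT cells at 10% CO2 (adjusted p = 0.0463) and by 0.34 ± 0.09 in shNR4A3 cells at 5% CO2 (adjusted p = 0.0127). It was between -0.17 and -0.37 in the other 4 comparisons. The first of these calls was lost without any single library but shNT 10% CO2 replicate 1 (adjusted p up to 0.186), and the other without shNR4A3 5% CO2 replicate 1 or its LPS replicate 3 (up to 0.0544).

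In 3 of the 6 LPS comparisons the libraries with the same replicate number deviated together over all genes, and a fit with that number as a block changed some calls. In shNR4A2 cells at 5% CO2 the count went from 4 to 5 of 9, with GSDMD added (-0.36 ± 0.10, adjusted p = 0.0203), against 27.7% of all genes. In shNR4A3 cells at 5% CO2 it went from 7 to 8, with CASP1 (0.40 ± 0.08) and NEK7 (0.22 ± 0.08) added and TXNIP lost (-0.81 ± 0.21, adjusted p = 0.0703), against 35.6%. In shNR4A3 cells at 10% CO2 it went from 7 to 9 with GSDMD (-0.17 ± 0.05) and NEK7 (0.17 ± 0.05) added, against 52.2%. Single libraries also moved a count: in shNR4A2 cells at 5% CO2 it was 2 of 9 without shNR4A2 5% CO2 replicate 2, or without replicate 1 or 3 with LPS. CASP4 lost its call in shNT cells at 5% CO2 without replicate 3 or LPS replicate 1 (adjusted p up to 0.0657), and in shNR4A2 cells at 5% CO2 without replicate 1 or 2 or LPS replicate 1 or 3 (up to 0.133). NEK7 lost it in shNT cells at 10% CO2 without replicate 2 or 3 of either group (up to 0.075). PYCARD lost it in shNR4A3 cells at 5% CO2 without replicate 1 or LPS replicate 1 or 3 (up to 0.0899), and TXNIP in shNR4A3 cells at 10% CO2 without replicate 1 or 3 or LPS replicate 2 or 3 (up to 0.0898).

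The shNR4A3 line held more RNA of several members than shNT cells. In shNR4A3 against shNT cells the members called were 4 of 9 at 5% CO2 (6.19% of all genes), 4 of 9 at 10% CO2 (6.85%), 3 of 9 at 5% CO2 with LPS (5.41%) and 5 of 9 at 10% CO2 with LPS (14.5%), all of them higher. In shNR4A2 against shNT cells they were 0 of 9 at 5% CO2 (5.69%), 2 of 9 at 10% CO2 (7.95%), 0 of 9 at 5% CO2 with LPS (6.21%) and 2 of 9 at 10% CO2 with LPS (18.9%), again all higher. These shNR4A2 counts are near the shares of all genes or rest on 2 genes, so nothing is read from them. Over all genes, 49.3% to 61.9% of the calls in the knockdown comparisons were higher. Where the count was 0, edgeR gave 4 and 5 members below 0.05 before adjustment, and DESeq2 found 1 each. Both sets of comparisons use the same shNT libraries. At 10% CO2 with LPS, NLRP3 is 1 of the 5 called in shNR4A3 cells. Its low values in those libraries chose it, so nothing is read from that call.

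CASP1 was higher in shNR4A3 than in shNT cells in all 4 conditions. At 5% CO2 with LPS its scaled CPM was 39.0, 34.7 and 38.1 in shNT, 61.3, 43.1 and 51.6 in shNR4A2 and 91.4, 59.7 and 63.2 in shNR4A3 cells. At 10% CO2 with LPS it was 43.1, 40.0 and 39.0 in shNT, 70.3, 46.4 and 48.5 in shNR4A2 and 95.4, 74.6 and 69.0 in shNR4A3 cells. Neither knockdown line overlapped shNT cells in CASP1 in any condition. In shNR4A3 cells CASP1 was higher by 0.43 ± 0.12 and 0.50 ± 0.09 without LPS, at 5% and 10% CO2, and by 0.94 ± 0.15 and 0.97 ± 0.11 with it (adjusted p = 0.0393, 0.00296, 0.00537 and 0.00013). In shNR4A2 cells it was 0.40 to 0.48 higher and was called at 10% CO2 without LPS only (adjusted p = 0.0395).

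NLRC4 was higher in shNR4A3 cells by 1.14 ± 0.28 at 5% and 1.05 ± 0.26 at 10% CO2 and by 1.51 ± 0.35 at 5% CO2 with LPS, and in shNR4A2 cells by 1.15 ± 0.29 at 10% CO2. Its scaled CPM in basal shNR4A3 cells at 5% CO2 was 8.62, 3.38 and 6.04, all above the 2.46 to 2.90 of shNT cells and unlike each other. NLRP3 was higher in shNR4A3 cells by 0.42 ± 0.10 at 5% CO2 and 0.32 ± 0.09 at 10% CO2 (adjusted p = 0.0143 and 0.0426), and the value at 10% CO2 with LPS, in libraries used to choose it, was 0.41 ± 0.10. In shNR4A2 cells NLRP3 was at 0.00 to 0.34, uncalled. PYCARD was 0.27 to 0.36 higher over the 8 comparisons and was called in 3 of them: shNR4A3 cells at 5% and at 10% CO2, and shNR4A2 cells at 10% CO2 with LPS.

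**Figure D4:**
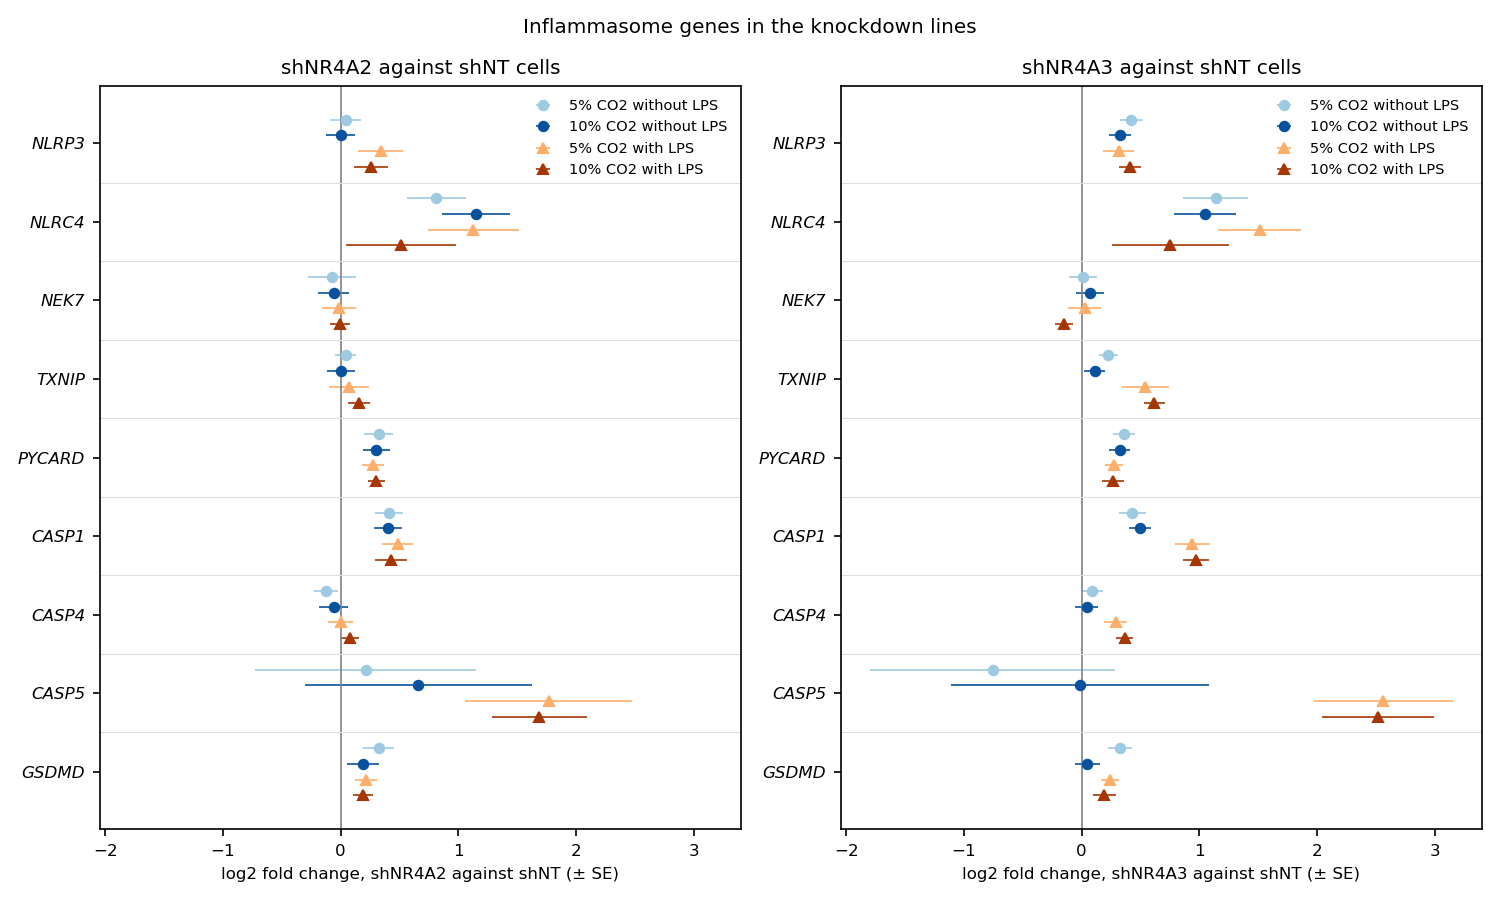
Log2 fold change of the 9 tested genes in shNR4A2 (left) and shNR4A3 (right) against shNT cells (x axis, bars are standard errors) in the 4 conditions. CASP1, NLRC4, PYCARD, GSDMD, NLRP3 and TXNIP lie right of 0 in both panels, NLRP3 and TXNIP from 0.00 at left. CASP5 does so with LPS (1.69 and 1.77 at left, 2.52 and 2.56 at right). Without LPS its lowest value is 0.21 at left and -0.75 at right.

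Differences in CASP5 between the lines were called with LPS only, at the reads given above. The libraries that let CASP5 pass the filter on low counts are in the knockdown arm of those comparisons. It was higher by 2.56 ± 0.59 and 2.52 ± 0.47 in shNR4A3 cells at 5% and 10% CO2 (adjusted p = 0.0307 and 0.0037) and by 1.69 ± 0.40 in shNR4A2 cells at 10% CO2 (adjusted p = 0.0111), and at 5% CO2 it was 1.77 ± 0.71 (adjusted p = 0.185). Without LPS it lay between -0.75 and 0.66 with standard errors near or above its own size. At 10% CO2 with LPS, shNR4A3 cells also held more TXNIP (0.62 ± 0.09, adjusted p = 0.000504) and CASP4 (0.36 ± 0.07, adjusted p = 0.00366). NEK7 was between -0.15 and 0.07 and GSDMD between 0.05 and 0.32 in the 8 comparisons, with none called.

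Over all genes, replicate numbers paired the libraries in 3 knockdown comparisons, and the block raised the counts there. The members called in shNR4A2 against shNT cells went from 0 to 4 at 5% CO2 (NLRC4 0.79 ± 0.19, CASP1 0.40 ± 0.09, PYCARD 0.32 ± 0.06 and GSDMD 0.31 ± 0.08), against 21.5% of all genes. At 5% CO2 with LPS they went from 0 to 6, with NLRC4, CASP5, CASP1, NLRP3 (0.32 ± 0.07), PYCARD and GSDMD, against 24.7%. In shNR4A3 against shNT cells at 5% CO2 with LPS they went from 3 to 8, with NEK7 (0.02 ± 0.10) the one uncalled, against 18.7%. Over genes of at least 10 CPM the numbers also paired the other knockdown comparisons but that of shNR4A2 at 10% CO2. There the block raised the count from 2 to 6 in shNR4A2 cells at 10% CO2 with LPS. In shNR4A3 cells the count went from 4 to 6 at 5% CO2 and from 5 to 7 at 10% CO2 with LPS. The shares of all genes under the block are not given for these, so nothing is read from their counts. In the 3 comparisons paired over all genes the block raised the shares of all genes too, from 5.69%, 6.21% and 5.41% without it. Under the block, NLRP3 is in all the counts with LPS given here, and libraries with LPS were used to choose it.

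Single libraries decided many of the knockdown calls. Leaving out shNR4A2 5% CO2 replicate 2, which held the lowest NEK7 of all libraries (33.9 scaled CPM), raised the count of the basal 5% comparison from 0 to 2, and leaving out shNR4A2 5% CO2 with LPS replicate 2 did the same with LPS. The 2 calls of shNR4A2 at 10% CO2 went to 0 without shNT 10% CO2 replicate 2 or 3 or shNR4A2 10% CO2 replicate 1, and to 1 without shNR4A2 10% CO2 replicate 3. Those at 10% CO2 with LPS went to 1 without shNT 10% CO2 with LPS replicate 3. The 4 calls of shNR4A3 at 5% CO2 went to 0 without shNT 5% CO2 replicate 3, and to 1 without any other library but shNR4A3 5% CO2 replicate 2. The 3 at 5% CO2 with LPS went to 5 without shNR4A3 replicate 2 and to 1 without any other library but shNT replicate 1. The 4 at 10% CO2 went to 1 or 2 without shNT 10% CO2 replicate 2 or any shNR4A3 library. The 5 at 10% CO2 with LPS, and the CASP1 calls at 10% CO2 and at both exposures with LPS, held without any single library. NLRP3 is 1 of those 5, and nothing is read from its call, since those libraries were used to choose it.

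Whether LPS acted differently in the knockdown lines was tested directly at 5% CO2, as the difference of the LPS response from that of shNT cells. No member was called in shNR4A2 or in shNR4A3 cells, and 0% of all genes were called in either test by edgeR without a replicate block. Before adjustment 392 and 854 genes were below 0.05, 0 and 2 of them members, and DESeq2 found 2 and 8 genes. In shNR4A3 cells the difference was 3.32 ± 1.25 for CASP5 and 0.51 ± 0.21 for CASP1 (adjusted p = 1 for both). The larger LPS rise of CASP5 in that line was therefore not called as a difference between lines.

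A wider list of 39 inflammasome genes, of which 29 were tested, was read beside the members: other sensors, cytokine and pore substrates, channels and regulators. With LPS in shNT cells at 5% CO2, 13 of the 29 were called, 8 higher and 5 lower, where 22.9% of all genes were. The called genes with the largest changes were the cytokines IL1A (7.81 ± 0.32) and IL1B (7.63 ± 0.18) and the guanylate-binding proteins GBP2 (3.49 ± 0.15) and GBP1 (3.18 ± 0.50), which coat bacteria and LPS; GBP1 had 2 to 3 reads per library without LPS. IL1B in shNT cells at 5% CO2 was at 24.3 ± 4.21 TPM without and 4112 ± 712 TPM with LPS. IL18, the other cytokine that caspase-1 matures, was at 0.09 ± 0.17 there and was not called for LPS in any line or exposure.

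The list gave 13 to 25 calls of 29 over the 6 LPS comparisons, where 18.2% to 42.1% of all genes were called. For CO2 without LPS, 0, 0 and 1 of the 29 were called in shNT, shNR4A2 and shNR4A3 cells, against 0.615%, 0.0113% and 1.13% of all genes. With the 3 lines together 6 were called, 1 higher and 5 lower, against 17.9% of all genes. That count of 6 is near the share of all genes, so nothing is read from it, and the genes are named as a description. Those lower at 10% CO2 were SERPINB1 (-0.37 ± 0.07), an inhibitor of neutrophil proteases that restrains inflammatory caspases, NLRP1 (-0.34 ± 0.10), a sensor, RIPK3 (-0.33 ± 0.08), the necroptosis kinase, the channel PANX1 (-0.26 ± 0.06) and the kinase MARK4 (-0.26 ± 0.06). The one higher was SUGT1 (0.24 ± 0.06), a chaperone partner of NLR proteins. IL1B was at 0.02 ± 0.12 and IL18 at 0.13 ± 0.09 for CO2 over the 3 lines without LPS. With LPS, where no p-value is given, IL1B was between 0.01 and 0.13 and IL18 between -0.06 and 0.02 at 10% against 5% CO2, beside the -0.51 to -0.68 of NLRP3.

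In the knockdown comparisons the list gave 3 to 8 calls of 29, where 5.41% to 18.9% of all genes were called. In the 4 of shNR4A2 against shNT cells every call was higher. Over all genes, 49.3% to 61.9% of the calls in the knockdown comparisons were higher. In shNR4A3 against shNT cells 1 of 4 calls at 5% CO2 and 2 of 6 at 10% CO2 were lower, and the 4 and 8 calls with LPS were higher. For the difference of the LPS response at 5% CO2 the list gave 0 calls of 29 in both lines by edgeR without a replicate block. Before adjustment 0 and 4 were below 0.05, and DESeq2 gave 0. The replicate block gave 0 in shNR4A2 and 1 in shNR4A3 cells, though the numbers did not pair those libraries. IL1B was higher in shNR4A2 and in shNR4A3 than in shNT cells at 10% CO2 with LPS (0.51 ± 0.16 and 0.46 ± 0.12, adjusted p = 0.0493 and 0.0326). Its mean scaled CPM there was 4040 ± 558 (SD) in shNT, 5781 ± 1383 in shNR4A2 and 5540 ± 874 in shNR4A3 cells. At 5% CO2 with LPS the means were 3749 ± 667, 5711 ± 1839 and 5080 ± 1266 in the same order. IL18 was higher at 10% CO2 with LPS in shNR4A2 cells (0.48 ± 0.12, adjusted p = 0.012).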

How the data were processed

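RNA of 36 THP-1 libraries was sequenced after polyA selection. The deposited values are raw counts of reads per gene, made by the authors with Trimmomatic 0.36, STAR 2.5.2b and featureCounts (Subread 1.5.2) on GRCh38, per the labels. The annotation release and the strand setting are not given in the sources used here. Groups came from the labels.

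Counts were tested with edgeR 4.0.16 in R 4.3.3 (TMM scaling, robust quasi-likelihood F test, Benjamini-Hochberg adjustment), after a filter that kept 17720 genes (minimum count 10, minimum total 15). Each comparison used its own libraries. Standard errors were obtained as the size of the log2 fold change over the root of its F value. The alternatives were DESeq2 1.42.0, whose Wald test the study used, other scalings and filters, a replicate block, 1 fit to all 36 libraries, and leaving out each library. The steps were tested on simulated data. Scaled CPM was used within a gene and TPM between genes.

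The members and lists were chosen with earlier results of these data known. The text names all members, the 4 called genes of the wider list with the largest LPS response in shNT cells at 5% CO2, those called for CO2 without LPS, IL1B and IL18, and the 5 genes most like NLRP3. Libraries with the same replicate number were taken as paired where every correlation of their deviations was over 0.1, as in 7 of 23 comparisons over all genes. Over genes of at least 10 CPM it was so in 13. The labels do not say what the numbers share. The smallest total was 16171161 counts, and few reads limit CASP5, NLRC4 and AIM2. Some single markers of other cell types are not reported here.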

Additional observations from a re-analysis of the deposited data

How the results depend on the processing

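Members called are counts of 9. DESeq2 gave 1 for CO2 without LPS in shNR4A3, for CO2 with LPS in shNR4A2 and for shNR4A2 against shNT at 5% CO2 without and with LPS, and 5 for shNR4A3 against shNT at 5% CO2 with LPS. With no filter the counts were 1, 1, 2 and 2 in the first 4 of these, 2 for CO2 with LPS in shNT and 2 for shNR4A3 against shNT at 10% CO2. With the replicate block they were 7 for LPS in shNT at 5% CO2, 1 for CO2 without LPS in shNR4A3, 3 in the 3 lines together, 1 for CO2 with LPS in shNR4A2, 4, 6 and 6 for shNR4A2 against shNT at 5% CO2, at 5% and at 10% CO2 with LPS, and 8 for shNR4A3 against shNT at 5% CO2 with LPS. A fit to all 36 libraries gave 0 for CO2 without LPS in the 3 lines together, 1 and 0 for CO2 with LPS in shNR4A2 and shNR4A3, 1 in each of the same 3 comparisons of shNR4A2 with shNT, and 2, 5 and 2 for shNR4A3 against shNT at 5% CO2, at 5% CO2 with LPS and at 10% CO2. Library size only gave 2 in the 3 lines together, and a filter of 1 CPM gave 0 for CO2 with LPS in shNR4A3. NEK7 reversed in shNR4A3 at 10% CO2 under library size only (-0.0845, uncalled). For CO2 with LPS in shNT, that scaling moved the share of higher calls over all genes from 54.5% to 39.2%. The causes were not tested, and nothing is read from the counts for CO2 with LPS, the contrast that chose NLRP3.

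Without single libraries the counts ranged from 2 to 4 for LPS in shNR4A2 at 5% CO2, 1 to 2 for CO2 without LPS in the 3 lines together, and 0 to 2, 0 to 1 and 0 to 1 for CO2 with LPS in shNT, shNR4A2 and shNR4A3. For shNR4A2 against shNT they ranged from 0 to 2 at 5% CO2, 0 to 2 at 5% CO2 with LPS, 0 to 2 at 10% CO2 and 1 to 3 at 10% CO2 with LPS. For shNR4A3 against shNT they ranged from 0 to 3, 1 to 5 and 1 to 4 in the first 3 of these. Few reads limit CASP5, NLRC4 and AIM2.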
